A study of Mus musculus with 24 samples.

Results

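Imprinted genes were followed in sorted mouse spermatogonia. The set was chosen by gene name as 37 genes with known parent-of-origin expression, of which 36 were listed in both FPKM tables (one, from the Zbtb16 experiment, lists 23177 genes and the other, from the Sox3 experiment, 21688). Kcnq1ot1 was not analysed here. In other tissues 14 of the 36 are normally expressed from the maternal allele and 21 from the paternal allele, and Gnas makes transcripts from both. The 36 genes lie on 9 chromosomes, with 15 on chromosome 7, 7 on chromosome 6 and 5 on chromosome 12.

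RNA sequencing was done on cells from testes of C57BL/6J mice at postnatal day 7, with the testes of 3 mice pooled for each isolation. THY1+ cells are undifferentiated spermatogonia (uSPG) and KIT+ cells are differentiating spermatogonia (dSPG), and both were sorted with antibody-coated magnetic beads. The Zbtb16 table holds 12 libraries from mice homozygous for the luxoid allele of Zbtb16 (null, Zbtb16 lu/lu) and from their wild-type (WT) controls, for which the study also names heterozygous littermates although the labels say WT. The Sox3 table holds another 12 from mice in which a floxed Sox3 was deleted in germ cells by Ddx4-Cre (conditional knockout, cKO) and from their WT controls, so that each of the 8 groups had 3 libraries. The null allele is present in every cell of the body, whereas the Cre is driven by a germ cell gene. All mice were of 1 inbred background, so the parental alleles could not be told apart and only total RNA of each gene was measured. The labels do not say more of the replicates than their number, so p-values measure the spread between these pools.

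An imprinted gene carries DNA methylation that was set in the egg or in the sperm lineage and that silences or activates the copy from that parent. In the male germ line the inherited marks are erased in primordial germ cells, and paternal marks are laid down in prospermatogonia before birth. Many genes of the group control fetal and placental growth and are abundant in mesenchymal and endocrine cells of young tissues. Imprinting of several of them, among them Ube3a, Grb10, Copg2 and Inpp5f, is limited to some tissues or transcripts.

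The Zbtb16 libraries held an estimated 25950000 to 35190000 reads, the Sox3 libraries of replicate 1 held 28250000 to 31890000, and those of replicates 2 and 3 held 11020000 to 14920000. Zbtb16 fell in null THY1+ uSPG (log2 fold change -1.59) and in null KIT+ dSPG (-1.45), and Sox3 was at 0 to 0.0820 FPKM in the cKO against 6.28 to 24.4 FPKM in WT. The WT libraries of the Sox3 table went against their fraction labels. Those labelled THY1+ had 0.213 to 0.254 FPKM of Thy1 and 45.6 to 80.1 FPKM of Kit, and those labelled KIT+ had 3.59 to 4.06 FPKM of Thy1 and 12.97 to 18.8 FPKM of Kit. They were not regrouped and are named below as labelled. Every sorted fraction also held RNA of somatic cells, and in bulk samples fewer cells of a type and less RNA per cell cannot be told apart.

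Most of the imprinted genes were well expressed. Of the 36 genes 16 had in each table a mean of at least 10 FPKM (fragments per kilobase of transcript, scaled to library size, and so a level per length), and only Asb4 and Magel2 in the Zbtb16 table, joined by Nap1l5 in the Sox3 table, were under 1 FPKM. In the Zbtb16 libraries the median gene was at 3.53 FPKM and 27 imprinted genes were above it, and in the Sox3 libraries it was at 4.28 FPKM with 25 above it. The lowest value of any member stood for an estimated 15 reads (Zbtb16 libraries) or 4 reads (Asb4, Sox3 libraries).

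**Figure D1:**
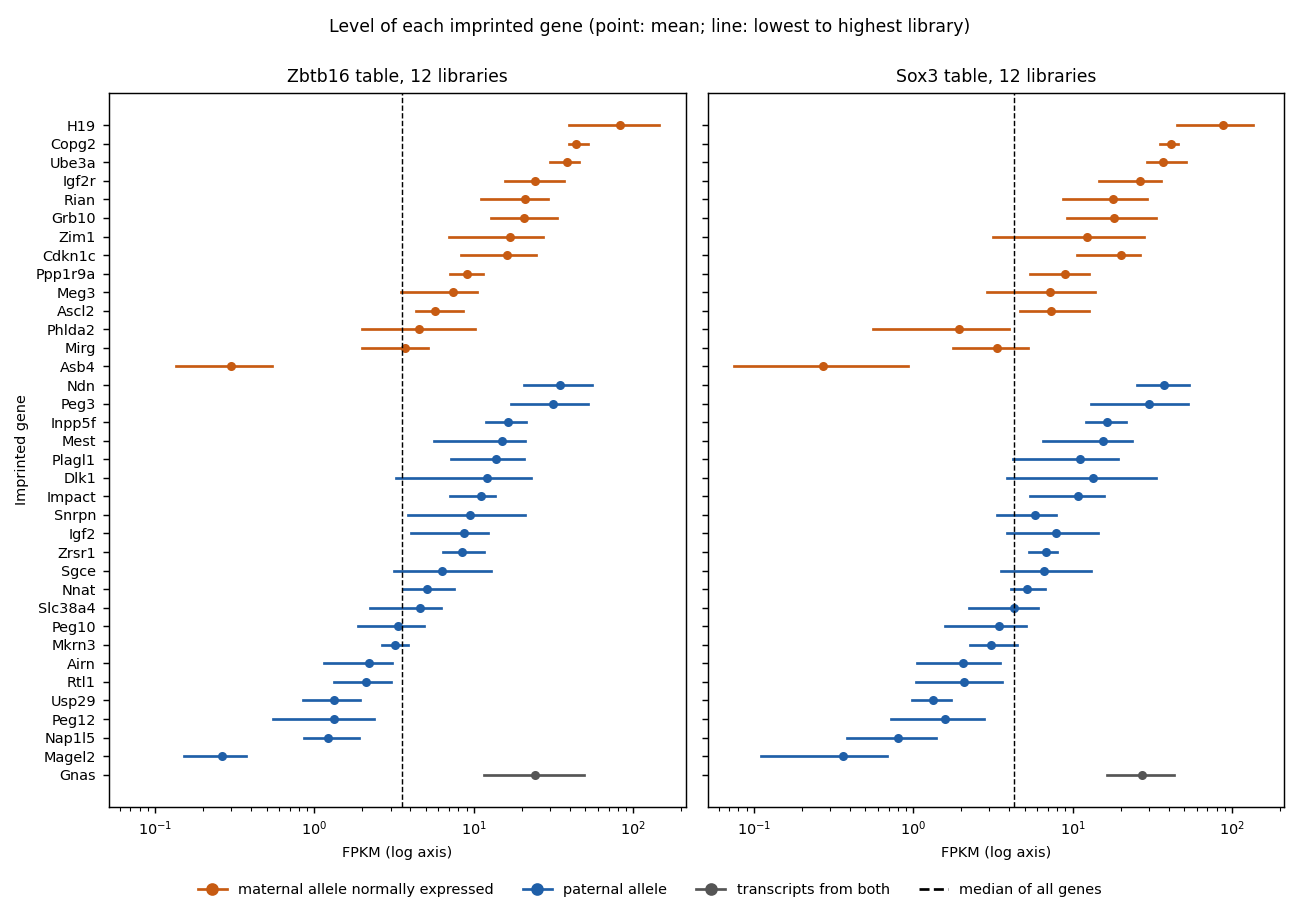
Mean FPKM (points) and the range from the lowest to the highest of 12 libraries (lines) on a log axis for the 36 imprinted genes in each table, coloured by the parental allele normally expressed, with the median of all genes dashed. H19 is highest, and Copg2 and Ube3a have short ranges whereas Dlk1, Zim1 and Phlda2 span wide ones.

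Among the maternally expressed genes H19, a noncoding RNA that restrains growth, was highest. It was at 85.8, 86.2 and 122 FPKM in THY1+ WT cells, at 52.2, 83.1 and 87.6 FPKM in THY1+ null cells, at 39.6, 73.6 and 73.5 FPKM in KIT+ WT cells and at 52.4, 87.2 and 146 FPKM in KIT+ null cells. The 4 groups overlapped. Copg2, a subunit of the coatomer that coats transport vesicles, was next. It was at 43.7, 44.6 and 42.1 FPKM in THY1+ WT cells, 49.9, 51.9 and 49.6 FPKM in THY1+ null cells, 41.8, 41.2 and 39.7 FPKM in KIT+ WT cells and 43.6, 39.3 and 40.7 FPKM in KIT+ null cells. The THY1+ null libraries were above all others, and the change against WT did not pass the test (log2 fold change 0.21, adjusted p = 0.101 in limma). Ube3a, a ubiquitin ligase, stayed between 29.9 and 45.7 FPKM over the 12 libraries and was higher in each WT KIT+ library (45.0, 43.7 and 43.1 FPKM) than in each WT THY1+ library (35.4, 34.4 and 34.1 FPKM), a difference below 1.5-fold. In the null it was at 34.2, 29.9 and 32.6 FPKM in THY1+ and at 41.2, 41.2 and 45.7 FPKM in KIT+, so that each KIT+ library was again above each THY1+ library.

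Among the paternally expressed genes Ndn, which encodes the growth-restraining protein necdin, was highest. It was at 39.3, 33.1 and 31.2 FPKM in THY1+ WT cells, 20.8, 34.7 and 23.3 FPKM in THY1+ null cells, 21.8, 42.2 and 31.7 FPKM in KIT+ WT cells and 33.7, 55.3 and 50.6 FPKM in KIT+ null cells. In 3 of these 4 groups replicate 2 was the highest library. Inpp5f, a phosphoinositide phosphatase, varied far less. It was at 21.2, 19.7 and 19.4 FPKM in THY1+ WT cells, 20.9, 19.1 and 20.3 FPKM in THY1+ null cells, 12.6, 13.1 and 13.3 FPKM in KIT+ WT cells and 12.9, 11.97 and 13.05 FPKM in KIT+ null cells. Its THY1+ libraries did not overlap its KIT+ libraries, and the null libraries overlapped those of WT in each fraction. Peg3 and Gnas, also among the highest of their class, are described with the comparisons below.

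The 3 libraries of a group differed in their somatic RNA, and the imprinted genes could be read against that. The summed FPKM of 10 markers of peritubular and stromal cells (among them Acta2, Col1a1 and Dcn) was highest in another library than the summed FPKM of 8 germ cell markers (among them Ddx4 and Dazl) in each of the 8 groups, and in 5 of the 8 the library highest in the stromal markers was lowest in the germ cell markers. For each imprinted gene the groups were counted in which its highest library, and its lowest, was that of the stromal list or that of the germ cell list, which gives up to 16 matches. The stromal list had more matches than the germ cell list for 24 of the 36 genes, the germ cell list for 10, and 2 were tied. Gnas matched the stromal list 15 times, Grb10 and Ndn 14 times, and Rian, Mirg, Cdkn1c and Peg3 13 times. Snrpn and Usp29 matched the germ cell list 11 times, Nap1l5 10 times, Phlda2 9 times (7 stromal) and Copg2 7 times (4 stromal). The same count against Leydig cell markers gave 8 for Gnas, 11 for Grb10, Ndn and Mest, and 12 for Meg3. The stromal counts of Mest and Meg3 were 8 and 10. With 3 libraries a group some matches arise without any link, so close counts do not place a gene. Libraries with the same replicate number deviated together in most pairs of Zbtb16 groups, so the 16 matches are not independent. Because the stromal and germ cell lists never peaked in the same library, a gene's highest library cannot match both. These counts describe the spread among 3 libraries a group, were added after the data had been seen, and were not tested.

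**Figure D2:**
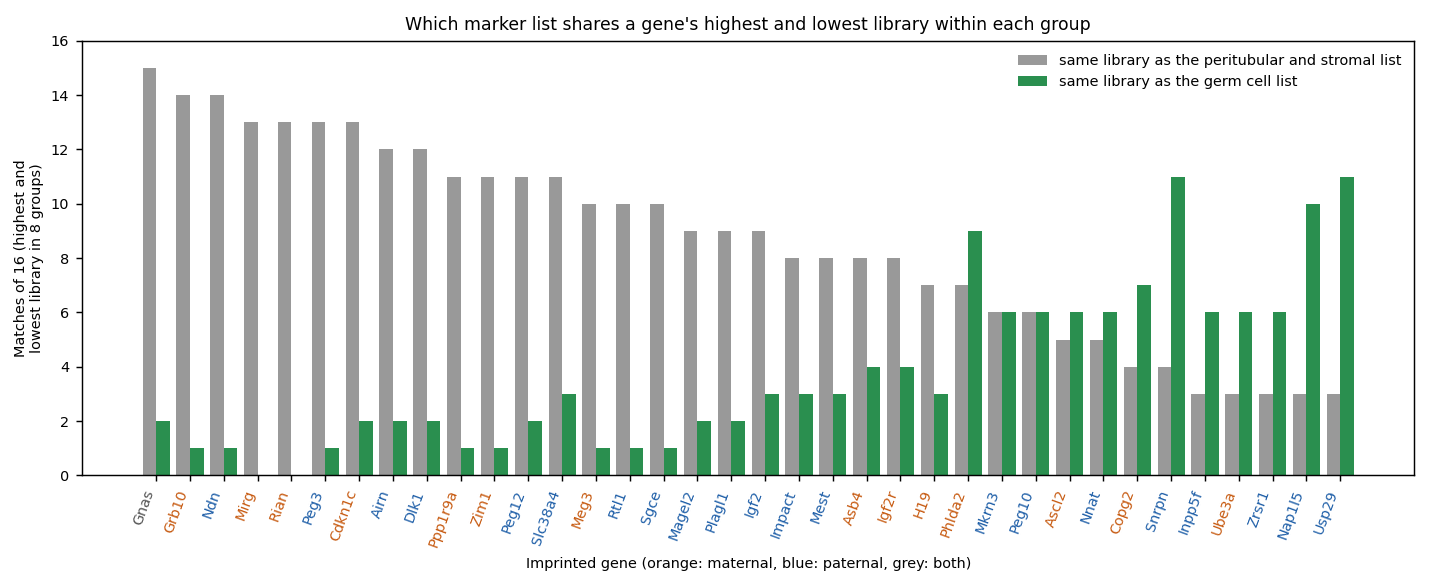
Number of matches of 16 between a gene's highest and lowest library in the 8 groups and those of the stromal list (grey bars) or the germ cell list (green bars), for the 36 imprinted genes. Gnas, Grb10 and Ndn stand at the stromal end with 15, 14 and 14 matches, and Snrpn and Usp29 at the other end with 11 germ cell matches each.

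Neighbours within an imprinted cluster fell on both sides of this order. Peg3, a zinc finger protein, and Usp29, a deubiquitinase, are both paternally expressed and start 147 bases apart on opposite strands, yet Peg3 had 13 stromal matches and 1 germ cell match, and Usp29 had 3 and 11. Their log2 changes in null against WT THY1+ uSPG were -0.58 (SE 0.304) and 0.32 (SE 0.155), neither past the test. In the same way Snrpn had 4 stromal and 11 germ cell matches, while Ndn, further along the same cluster, had 14 and 1. Phlda2 had 7 and 9, and its neighbour Cdkn1c had 13 and 2. The 2 genes Peg10 and Sgce, which start 99 bases apart, had 6 and 6 matches and 10 and 1 matches.

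In THY1+ uSPG without Zbtb16 2 of the 36 imprinted genes rose and none fell, at an adjusted p of at most 0.05 and at least 1.5-fold in limma. Over all genes 3.98% were called in this comparison, 2.71% higher and 1.26% lower. The 2 genes were Snrpn (chr7:59974149-60005064, minus strand, GRCm38), which is paternally expressed and encodes the splicing protein SmN, and Phlda2 (chr7:143501545-143503150, minus strand), which is maternally expressed and encodes a pleckstrin homology protein that limits placental growth. Their matches with the germ cell list were 11 and 9, and with the stromal list 4 and 7. The rest of the set leaned the other way, with 27 of 36 changes below 0 and a median log2 change of -0.19, against -0.03 over all genes tested. The other 34 genes ranged from -0.78 to 0.35. With the replicate number as a block in the fit, 5 genes were called (8.85% of all genes), Snrpn and Phlda2 higher and Plagl1, Zim1 and Meg3 lower.

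Snrpn was at 6.20, 5.19 and 8.35 FPKM in THY1+ WT cells and at 19.3, 16.8 and 21.1 FPKM in THY1+ null cells. All null libraries were above all WT libraries, with a log2 fold change of 1.54 (SE 0.171, 2.91-fold, adjusted p = 0.000896 in limma). Among KIT+ cells the values were 3.88, 4.37 and 4.91 FPKM in WT and 7.64, 6.67 and 8.54 FPKM in null. These groups did not overlap either, but the log2 fold change of 0.78 (SE 0.171) did not pass the test (adjusted p = 0.120). The change in KIT+ less that in THY1+ was -0.76 (SE 0.242, adjusted p = 0.121). With the replicate block the KIT+ change passed (adjusted p = 0.0126), as did the difference between the fractions (adjusted p = 0.0188). Its reads can come from Snurf, which shares the transcript, and the values are those of the locus.

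Phlda2 was at 3.82, 2.46 and 2.49 FPKM in THY1+ WT cells and at 10.03, 6.76 and 10.2 FPKM in THY1+ null cells. The groups were far apart, with a log2 fold change of 1.60 (SE 0.240, 3.02-fold, adjusted p = 0.00412 in limma). Among KIT+ cells the values were 2.73, 1.99 and 2.64 FPKM in WT and 4.48, 2.79 and 4.02 FPKM in null. Each null library was again above each WT library, by a log2 fold change of 0.58 (SE 0.240) that did not pass the test (adjusted p = 0.256, and 0.0429 but under 1.5-fold with the replicate block). Over 13 alternative settings in THY1+ uSPG the log2 fold change ran from 1.39 to 1.73 for Snrpn and from 1.35 to 1.80 for Phlda2, and both passed in each of the 13.

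The promoters of these genes differ in base content. They are printed with that of Mest, a paternally expressed gene of a hydrolase family that did not pass the test here (log2 fold change -0.11), as windows of 250 bases before to 50 after the start site (RefSeq, GRCm38.p6), 5′ to 3′ on the strand of the gene. Capitals mark TGCCGC or its reverse complement GCGGCA, the letters that the imprint-protecting protein ZFP57 reads in methylated DNA. RefSeq gives 4 windows for Snrpn, of which only the one printed holds these letters, 1 window for Phlda2, and 3 for Mest, of which 2 hold them. The printed Snrpn window (chr7:60005150-60005449, minus strand) holds 1 match and 7 CG pairs, the Phlda2 window (chr7:143502475-143502774, minus strand) holds no match and 26 CG pairs, and the printed Mest window (chr6:30737800-30738099, plus strand) holds 2 matches and 17 CG pairs.
Snrpn: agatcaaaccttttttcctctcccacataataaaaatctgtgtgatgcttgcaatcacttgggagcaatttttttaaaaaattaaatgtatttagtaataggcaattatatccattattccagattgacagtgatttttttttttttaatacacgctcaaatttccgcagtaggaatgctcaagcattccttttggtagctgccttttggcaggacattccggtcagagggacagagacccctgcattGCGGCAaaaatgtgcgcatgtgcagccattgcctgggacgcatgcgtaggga
Phlda2: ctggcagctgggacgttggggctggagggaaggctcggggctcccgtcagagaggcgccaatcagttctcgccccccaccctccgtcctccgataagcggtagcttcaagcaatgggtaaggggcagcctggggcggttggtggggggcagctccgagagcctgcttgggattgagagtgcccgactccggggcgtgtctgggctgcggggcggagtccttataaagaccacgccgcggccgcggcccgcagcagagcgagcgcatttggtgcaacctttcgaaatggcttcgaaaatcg
Mest: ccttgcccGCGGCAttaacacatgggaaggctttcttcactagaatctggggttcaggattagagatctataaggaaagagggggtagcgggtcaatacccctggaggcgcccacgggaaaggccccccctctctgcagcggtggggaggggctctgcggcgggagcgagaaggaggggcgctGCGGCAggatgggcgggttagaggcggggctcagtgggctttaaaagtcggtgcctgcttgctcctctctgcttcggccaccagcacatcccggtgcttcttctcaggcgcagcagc
The motif was in at least 1 window of 10 of the 30 imprinted genes with a window in the RefSeq set (33.3%), against 13.1% of 27025 genes. Counted by window the shares were 11 of 47 (23.4%) and 11.6% of 32851. Of the maternal genes 4 of 12 held it and of the paternal genes 6 of 17. Snrpn and Phlda2, the genes that rose, are split between those with it in any window and those without it. The motif itself holds a CG pair, windows were not matched for base content or number per gene, and the shares were not tested.

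The lowest changes in null THY1+ uSPG were those of 3 genes with more stromal than germ cell matches. Plagl1, a zinc finger protein that restrains growth, was at 19.5, 20.5 and 14.8 FPKM in WT and at 9.30, 13.2 and 9.47 FPKM in null, without overlap (log2 fold change -0.78, SE 0.277, adjusted p = 0.124). Zim1, a maternally expressed zinc finger gene beside Peg3, was at 27.3, 23.3 and 23.3 FPKM in WT and at 14.3, 18.4 and 13.6 FPKM in null (log2 fold change -0.68, SE 0.248, adjusted p = 0.131). Meg3, a maternally expressed noncoding RNA, was at 8.30, 9.91 and 9.45 FPKM in WT and at 4.34, 7.56 and 4.91 FPKM in null (log2 fold change -0.75, SE 0.286, adjusted p = 0.146). None of these 3 passed the test without the replicate block, where 9 of the 36 had an unadjusted p under 0.05. Once the replicate block was added their adjusted p-values were 0.0144, 0.0477 and 0.0158. The stromal list moved beside them, with 9 of 10 markers below 0 (median -0.66) and sums of 489.7 to 726 FPKM in WT and 306 to 512 FPKM in null, as did Leydig cell markers, with 6 of 6 below 0 (median -0.84). The 8 germ cell markers were all above 0 (median 0.31), with sums of 1123 to 1302 FPKM in WT and 1305 to 1606 FPKM in null. Markers of undifferentiated and of differentiating spermatogonia had medians of -0.03 and -0.07. No marker of these lists was at 0 in every library, and their part in the result was not tested.

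In KIT+ dSPG none of the 36 imprinted genes was called between null and WT in limma, where 0.259% of all genes were, and 17 had an unadjusted p under 0.05. Values leaned upward, with 30 of 36 changes above 0, a median of 0.50 against 0.01 over all genes, and a range from -0.31 (Ascl2) to 1.02 (Dlk1). With the replicate block 8 of the 36 were called, all higher (2.29% of all genes). They were Dlk1, Meg3, Mest, Mirg, Plagl1, Rian, Rtl1 and Snrpn. Maternal and paternal genes lay close together, with medians of 0.47 and 0.49. In total 24 of the 36 genes were below 0 in THY1+ uSPG and above 0 in KIT+ dSPG, while Snrpn and Phlda2 were among the 6 above 0 in both. Stromal markers were above 0 for 9 of 10 (median 0.69, sums of 230 to 465 FPKM in WT and 360 to 754 FPKM in null) and Leydig markers for 6 of 6 (median 0.60). Their part in the result was not tested.

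Gnas, which encodes the stimulatory G protein alpha subunit, shows this pattern. It was at 27.9, 22.9 and 18.2 FPKM in THY1+ WT cells and at 12.9, 20.8 and 11.5 FPKM in null (log2 fold change -0.63, SE 0.303). Among KIT+ cells the values were 15.4, 30.3 and 20.7 FPKM in WT and 25.6, 48.8 and 35.3 FPKM in null (0.73, SE 0.303). The groups overlapped in both fractions, and replicate 2 was far above the other KIT+ libraries in each genotype. Peg3 was at 36.9, 35.6 and 29.2 FPKM in WT THY1+, 18.6, 32.0 and 19.3 FPKM in null THY1+, 17.1, 35.4 and 25.0 FPKM in WT KIT+ and 27.2, 52.1 and 47.4 FPKM in null KIT+, with overlap in both fractions. The interaction, the change in KIT+ less that in THY1+, was called for none of the 36 genes in limma (0.0313% of all genes), with 21 at an unadjusted p under 0.05. Once the block was added it was called for 19 (12.3% of all genes), 17 higher, among them Gnas, Peg3, Zim1 and Plagl1, and 2 lower, Snrpn and Phlda2. Its median was 0.60, and it was 1.36 (SE 0.429) for Gnas, 1.47 (SE 0.351) for Zim1 and 1.55 (SE 0.391) for Plagl1. Without null KIT+ replicate 1, and with no block, the interaction called 5 genes, Meg3, Rian, Zim1, Plagl1 and Sgce. The share of all genes called in that fit is not given, so the 5 show only that the count depends on single libraries.

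**Figure D3:**
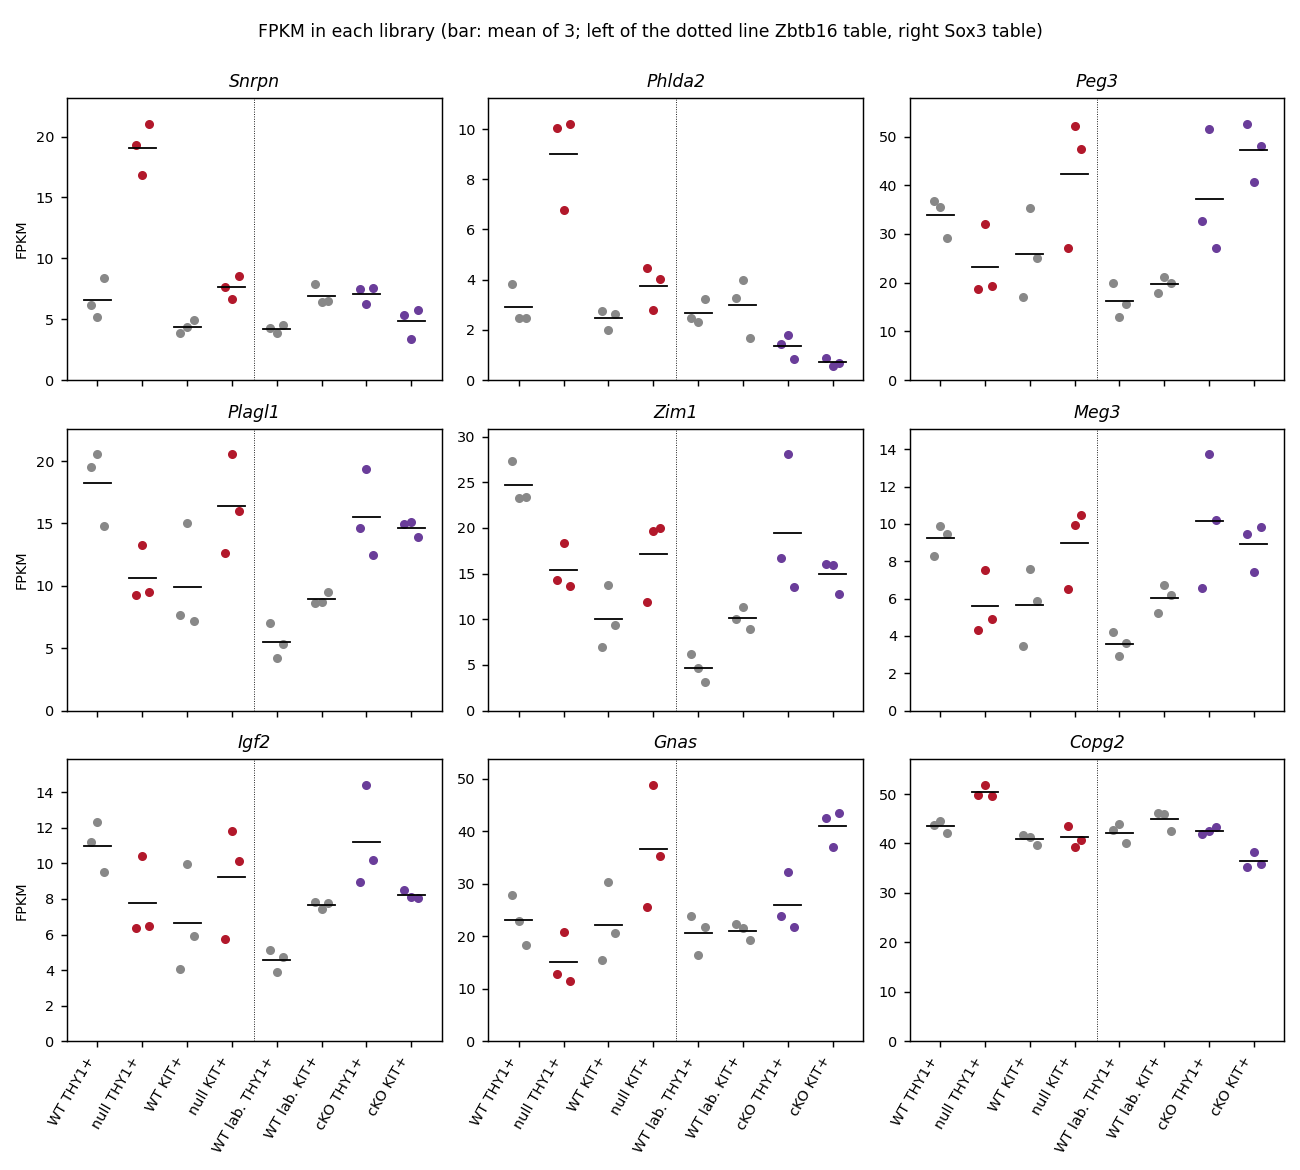
FPKM (linear axis from 0) of 9 imprinted genes in each of 24 libraries, as points with the group mean as a bar, the Zbtb16 table left of the dotted line and the Sox3 table right of it. Snrpn and Phlda2 are highest in null THY1+, Phlda2 is lowest in the cKO, and Peg3, Plagl1, Zim1 and Meg3 are lowest in the WT libraries labelled THY1+.

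The sorted fractions were compared next. Between WT KIT+ dSPG and WT THY1+ uSPG from the Zbtb16 experiment, 11 of the 36 genes were called in limma, 3 higher and 8 lower in KIT+, against 21.2% of all genes (7.21% higher and 14.0% lower). The median over the set was -0.45 and over all genes -0.03. Higher in KIT+ were Grb10, an adaptor that restrains growth factor signalling (log2 fold change 0.71, SE 0.131), Ascl2, a helix-loop-helix factor of the trophoblast (0.72, SE 0.170), and Peg12 (0.68, SE 0.217). Lower in KIT+ were Dlk1 (-1.52, SE 0.506), Zim1 (-1.34, SE 0.248), Mest (-1.22, SE 0.223), Plagl1 (-0.94, SE 0.277), Cdkn1c, a cyclin-dependent kinase inhibitor (-0.89, SE 0.213), Rian (-0.67, SE 0.207), Igf2r, the receptor that clears IGF2 (-0.63, SE 0.220, adjusted p = 0.0499), and Inpp5f (-0.62, SE 0.0759). The count fell to 5 without WT THY1+ replicate 1 and to 7 without WT THY1+ replicate 2, WT KIT+ replicate 1 or WT KIT+ replicate 3. With libraries scaled to equal medians it was 3 higher and 5 lower. Shares of all genes are not given for these refits, so they show only that the count depends on settings and single libraries.

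The same contrast among the null libraries called 13 of the 36 genes, 9 higher and 4 lower in KIT+, against 29.2% of all genes (13.2% higher and 16.0% lower). The median over the set was 0.29 and over all genes -0.05. Higher were Peg12 (1.45, SE 0.217), Sgce (1.31, SE 0.249), Gnas (1.27, SE 0.303), Grb10 (1.16, SE 0.131), Asb4, Airn, Peg3, Ndn and Nnat, and lower were Snrpn (-1.31, SE 0.171), Phlda2 (-1.24, SE 0.240), Usp29 (-0.96, SE 0.155) and Inpp5f (-0.67, SE 0.0759). All 6 Leydig markers were called higher here too (median 5.44), whereas the stromal markers had a median of 0.05. Their part in the 13 calls was not tested.

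The somatic lists moved with the fractions in different directions. In WT KIT+ dSPG 6 of 6 Leydig markers were called higher (median 4.12, sums of 83.1 to 119 FPKM in THY1+ and 1215 to 2272 FPKM in KIT+), 8 of 8 tested macrophage markers were called lower (median -8.08), and 5 of 10 stromal markers were called lower (median -1.03). Their part in the 11 calls was not tested. Inpp5f and Ascl2 had slightly more matches with the germ cell list (6 and 6) than with the stromal list (3 and 5). The other 9 called genes had more with the stromal list.

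In the Sox3 cKO libraries, whose markers followed their labels, the same contrast called 8 of the 36 genes (22.7% of all genes, 10.5% higher and 12.2% lower), 6 higher and 2 lower in KIT+. The median over the set was 0.00365 and over all genes -0.02. Grb10 was again higher (1.17, SE 0.177) as was Peg12 (0.996, SE 0.258), and Dlk1 (-1.52, SE 0.352) and Mest (-0.88, SE 0.206) were again lower. Between the null fractions Grb10 and Peg12 were higher too, but Dlk1 (-0.04) and Mest (-0.34) were not called. These libraries are independent of the Zbtb16 table. The others higher in KIT+ were Asb4 (1.43, SE 0.439), Nap1l5, a nucleosome assembly protein relative (1.06, SE 0.257), Sgce, a sarcoglycan (0.90, SE 0.270), and Gnas (0.68, SE 0.165). Zim1, at -0.32 in the cKO, was not called there. The count was 5 without cKO THY1+ replicate 3 and 2 with replicates 2 and 3 alone, and equal-median scaling gave 6 higher and 4 lower. Here too the shares of all genes are not given, and the refits show only how stable the count was.

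Loss of Sox3 was compared as the mean of both fractions, which weighs the 6 WT libraries alike whatever their labels. In limma 9 of the 36 imprinted genes were called, 8 higher and 1 lower in the cKO, against 10.3% of all genes (7.49% higher and 2.83% lower). Of the set 29 of 36 changes were above 0, with a median of 0.36 against 0.02 over all genes. The genes that rose came from both parental classes. They were the maternal Zim1, Meg3 and Rian, the paternal Peg3, Plagl1, Igf2 and Airn, and Gnas, and the gene that fell was Phlda2.

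Peg3 was at 20.0, 12.98 and 15.7 FPKM in WT labelled THY1+, 17.8, 21.2 and 19.8 FPKM in WT labelled KIT+, 32.7, 51.6 and 27.2 FPKM in cKO THY1+ and 52.7, 40.7 and 48.1 FPKM in cKO KIT+. Every cKO library was above every WT library (log2 fold change 1.21, SE 0.155, 2.31-fold, adjusted p = 0.00191). Plagl1 was at 7.0, 4.25 and 5.34 FPKM and at 8.63, 8.70 and 9.51 FPKM in the WT groups in the same order, and at 14.6, 19.4 and 12.5 FPKM and 15.0, 15.1 and 13.9 FPKM in the cKO groups, again without overlap (1.09, SE 0.130, adjusted p = 0.00162). Zim1 was at 6.21, 4.68 and 3.17 FPKM and at 10.1, 11.3 and 8.99 FPKM in the WT groups, and at 16.7, 28.1 and 13.5 FPKM and 16.1, 15.97 and 12.7 FPKM in the cKO groups (1.28, SE 0.192, adjusted p = 0.00289). Its cKO libraries were above all WT libraries.

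Igf2, the fetal growth factor, was at 5.12, 3.88 and 4.76 FPKM in WT labelled THY1+, 7.83, 7.46 and 7.75 FPKM in WT labelled KIT+, 8.96, 14.4 and 10.2 FPKM in cKO THY1+ and 8.49, 8.09 and 8.06 FPKM in cKO KIT+ (0.67, SE 0.115, adjusted p = 0.00372). The cKO KIT+ values lay just above those of WT labelled KIT+. Meg3 was at 4.21, 2.92 and 3.63 FPKM, 5.21, 6.71 and 6.18 FPKM, 6.56, 13.7 and 10.2 FPKM, and 9.46, 7.41 and 9.86 FPKM in the same order of groups (0.99, SE 0.170, adjusted p = 0.00372). One cKO THY1+ library overlapped the WT range. Rian, a noncoding RNA that hosts small nucleolar RNAs, was at 13.9, 10.1 and 8.65 FPKM, 18.0, 20.9 and 14.1 FPKM, 18.3, 25.3 and 16.4 FPKM, and 29.3, 18.6 and 22.9 FPKM (0.64, SE 0.163, adjusted p = 0.0164), with overlap.

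Gnas was at 23.9, 16.5 and 21.7 FPKM in WT labelled THY1+, 22.4, 21.5 and 19.2 FPKM in WT labelled KIT+, 23.7, 32.2 and 21.7 FPKM in cKO THY1+ and 42.5, 37.01 and 43.4 FPKM in cKO KIT+ (0.64, SE 0.116, adjusted p = 0.00440). The cKO KIT+ libraries stood above all others. Airn, a noncoding RNA antisense to Igf2r, was at 1.49, 1.39 and 1.42 FPKM, 2.10, 1.85 and 1.05 FPKM, 1.44, 2.48 and 2.10 FPKM, and 3.04, 2.85 and 3.49 FPKM in the same order (0.67, SE 0.180, adjusted p = 0.0212). Since strand use in counting was not stated, reads of Airn and Igf2r cannot be told apart where they overlap. The calls of Peg3, Plagl1, Zim1 and Meg3 passed under all 19 alternatives, those of Airn and Gnas missed a threshold in 4, that of Rian in 6 and that of Igf2 in 1. Without cKO THY1+ replicate 2 the count over the set was 5, without WT labelled THY1+ replicate 1 it was 14, and equal-median scaling gave 6 higher and 2 lower. Without the shares of all genes in these refits, the counts show only their dependence on settings and single libraries.

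Phlda2 moved the other way from these genes and opposite to its change in the Zbtb16 null. It was at 2.49, 2.33 and 3.22 FPKM in WT labelled THY1+ and 3.28, 3.98 and 1.69 FPKM in WT labelled KIT+, and at 1.43, 1.80 and 0.827 FPKM in cKO THY1+ and 0.888, 0.558 and 0.670 FPKM in cKO KIT+. Only the highest cKO library, 1.80 FPKM, reached into the WT range. The lowest cKO library, 0.558 FPKM, stood for an estimated 7 reads. The log2 fold change was -1.43 (SE 0.238, adjusted p = 0.00337), and the adjusted p was 0.0522 on replicates 2 and 3 alone, and the change was -0.92 with a pseudocount of 1 FPKM in place of 0.1 FPKM. Snrpn, the other gene raised in the Zbtb16 null, had a log2 change of 0.09 (SE 0.133) in the cKO.

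Markers of several somatic cell types were higher in the cKO too. Stromal markers were above 0 for 9 of 10 (3 called, median 0.56), Leydig markers for 6 of 6 (4 called, median 0.86) and endothelial markers for 8 of 8 (3 called, median 0.52). Macrophage markers were above 0 for 6 of 8 (none called, median 0.15) and T cell markers for 2 of 5 (none called, median -0.11). The germ cell lists were not alike. Markers of all germ cells were below 0 for 8 of 8 (none called, median -0.35). Those of differentiating spermatogonia were below 0 for 4 of 5 (2 called, median -0.54). Those of undifferentiated spermatogonia were above 0 for 7 of 9 (none called, median 0.19). Summed stromal markers were 221 to 369.5 FPKM in WT labelled THY1+, 334 to 579 FPKM in WT labelled KIT+, 454 to 1003 FPKM in cKO THY1+ and 549 to 659 FPKM in cKO KIT+. Their part in the 8 calls was not tested.

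**Figure D4:**
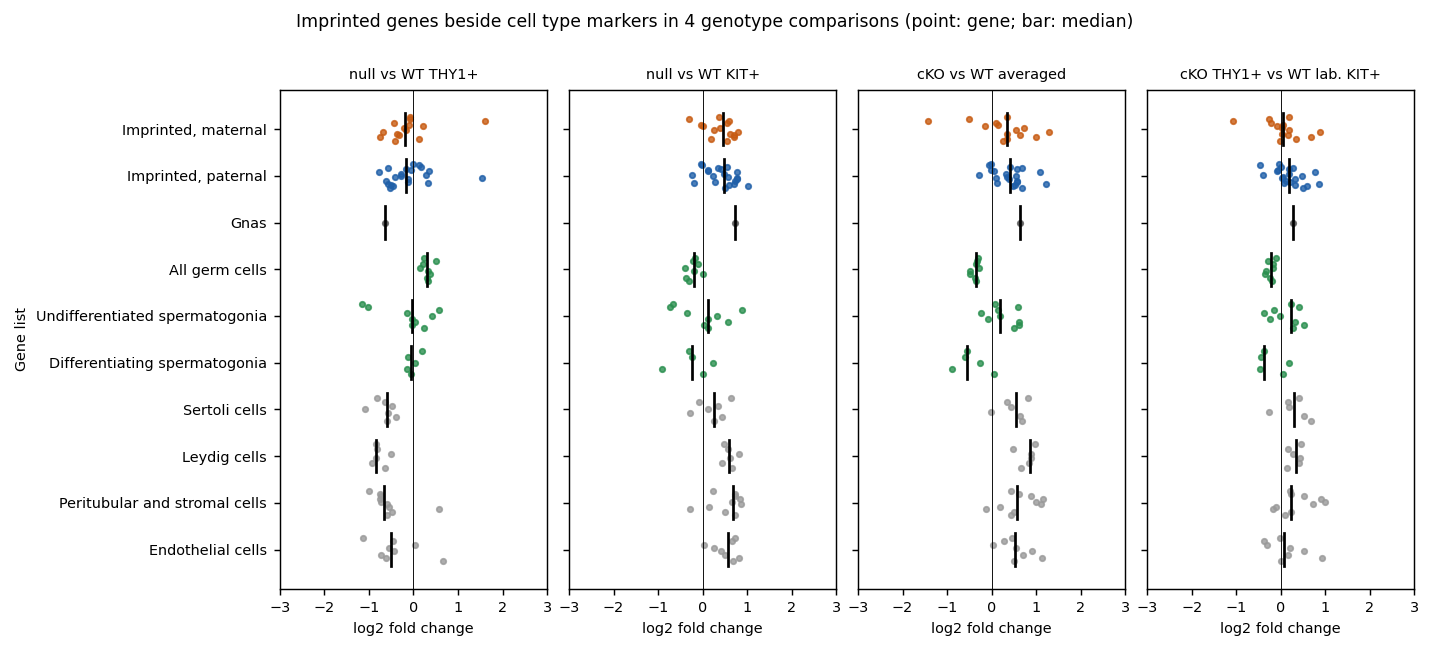
Log2 fold change of each imprinted gene (orange maternal, blue paternal, grey Gnas) and of each marker gene (green germ cell lists, grey Sertoli, Leydig, stromal and endothelial lists) in 4 genotype comparisons, with list medians as bars. The median of the imprinted genes has the sign of these 4 somatic lists in all 4 panels. The undifferentiated spermatogonia list shares that sign, with medians of -0.03, 0.12, 0.19 and 0.22 in panel order. The list of all germ cells has the opposite sign (0.31, -0.20, -0.35 and -0.22). T cell markers, not drawn, have medians of -0.40, -0.45, -0.11 and -0.18, and macrophage markers -0.75, 0.03, 0.15 and -0.06. The imprinted median is below 0 in null THY1+ (-0.19) and above 0 in null KIT+ (0.50), in the averaged cKO (0.36) and in cKO THY1+ against WT labelled KIT+ (0.15). Snrpn and Phlda2 stand apart at 1.54 and 1.60 in the first panel.

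Groups of the Sox3 table with the same sorting markers were then set side by side. Between cKO THY1+ uSPG and WT labelled KIT+, both with high Thy1, none of the 36 genes was called in limma (0.0707% of all genes), and 6 had an unadjusted p under 0.05, among them Peg3 (log2 fold change 0.87, SE 0.219, adjusted p = 0.233), Plagl1 (0.76, SE 0.183, adjusted p = 0.208) and Phlda2 (-1.07, SE 0.336, adjusted p = 0.276). The stromal list had a median of 0.23 here. Between cKO KIT+ dSPG and WT labelled THY1+, both with high Kit, 16 of the 36 were called (17.0% of all genes, 12.4% higher and 4.57% lower), 14 higher and 2 lower. Zim1 (1.69, SE 0.272), Peg3 (1.55, SE 0.219) and Plagl1 (1.42, SE 0.183) led those that rose, and Phlda2 (-1.79, SE 0.336) and Ascl2 (-0.77, SE 0.194) fell. The stromal list had a median of 0.88 and the Leydig list one of 1.30, and their part was not tested.

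Taken by the labels, cKO against WT called 18 of the 36 genes in THY1+ (14 higher and 4 lower, against 29.1% of all genes, 17.8% higher and 11.3% lower) and 11 in KIT+ (9 higher and 2 lower, against 25.1% of all genes, 12.4% higher and 12.6% lower). With WT labelled KIT+ as the control of cKO THY1+ the 18 became 0. The calls by label hold Dlk1 (1.89, SE 0.352) and Mest (1.33, SE 0.206) as higher in THY1+ and Grb10 as lower in THY1+ (-0.68, SE 0.177) and higher in KIT+ (1.36, SE 0.177). These 3 genes also differed between the fractions of the Zbtb16 WT and of the cKO, and of them only Grb10 was called between the null fractions. The Leydig list had a median of -3.87 and the macrophage list one of 8.79 in THY1+ by label, and 5.42 and -7.60 in KIT+ by label. In KIT+ the count was 6 on replicates 2 and 3 alone, and equal-median scaling gave 9 higher and 5 lower, for which shares of all genes are not given.

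**Figure D5:**
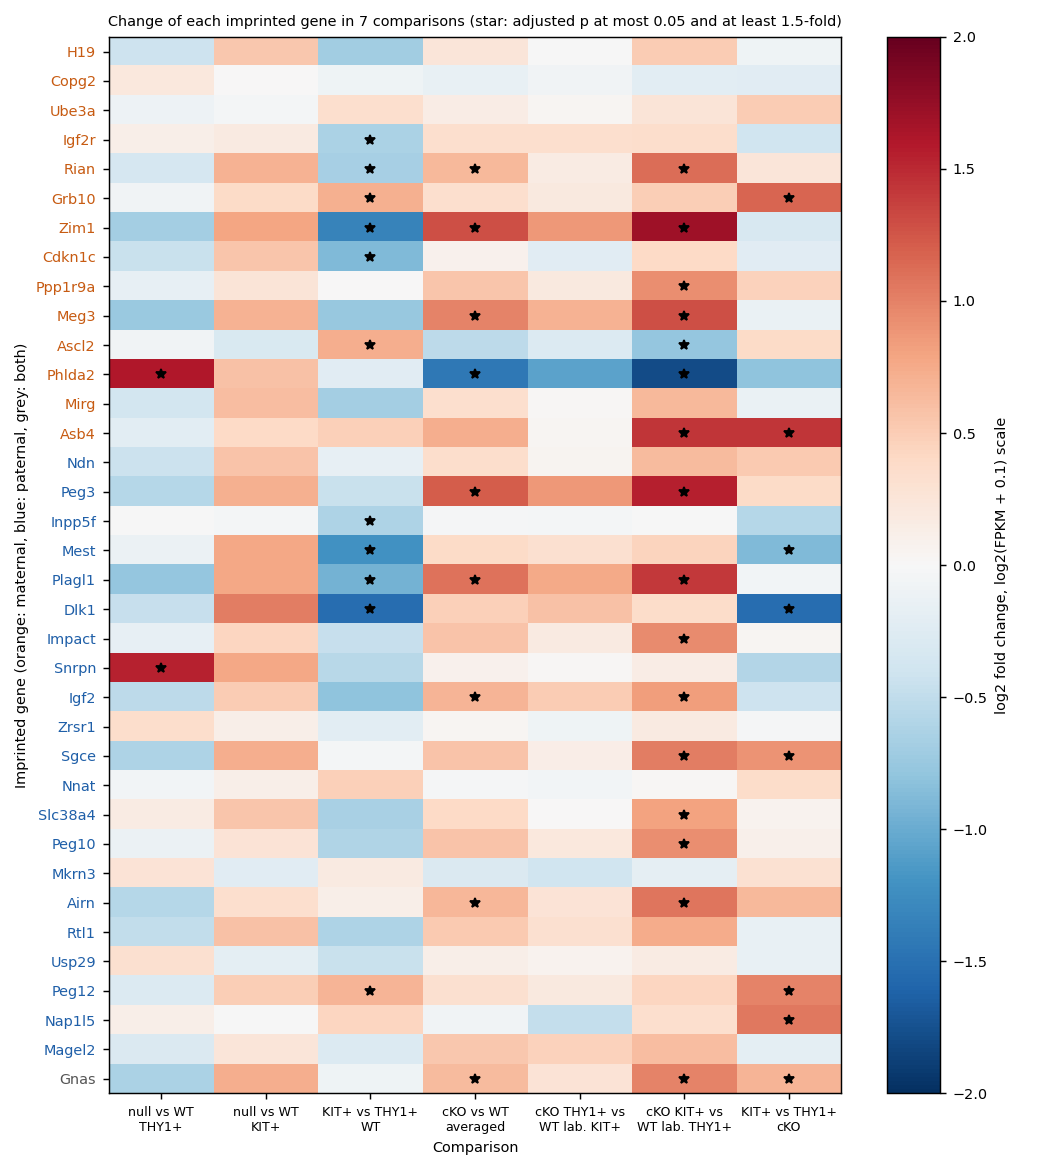
Log2 fold change (colour) of the 36 imprinted genes (rows, ordered by parental class and level) in 7 comparisons (columns), with a star where the adjusted p is at most 0.05 and the change at least 1.5-fold. Phlda2 is starred as higher in null THY1+ and as lower in the averaged cKO, and the column of cKO THY1+ against WT labelled KIT+ has no star.

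Genes that write or protect imprints were read from a list of 14, and other imprinted genes from a list of 30, of which 22 were tested. Of the first list 1 was called in null THY1+ uSPG (3.98% of all genes) and 1 in the averaged cKO (10.3% of all genes). It was Dppa3 both times, a factor that protects methylation in the early embryo. Dppa3 was at 0.372, 0.187 and 0.286 FPKM in THY1+ WT cells and at 2.75, 1.14 and 1.54 FPKM in null (log2 fold change 2.26, SE 0.392, adjusted p = 0.00927). In the Sox3 table it was at 2.004, 2.22 and 2.24 FPKM in WT labelled THY1+ and 0.329, 0.451 and 0.479 FPKM in WT labelled KIT+, and at 0, 0.204 and 0.2005 FPKM in cKO THY1+ and 0 in the 3 libraries of cKO KIT+. It was thus higher in the THY1+ null and lower in the averaged cKO, as Phlda2 was. Values this near 0 rest on few reads, and with groups at 0 no fold is given for the cKO. Between cKO THY1+ and WT labelled KIT+, both with high Thy1, 0 of the 14 were called (0.0707% of all genes). Between cKO KIT+ and WT labelled THY1+, both with high Kit, 1 was called higher and 2 lower (17.0% of all genes called). None of the 14 was called in null KIT+ dSPG or in the interaction.

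Of the 22 other imprinted genes 3 were called in null THY1+ uSPG, against 3.98% of all genes. Ddc, the aromatic amino acid decarboxylase, rose (log2 fold change 1.08, SE 0.192), Dio3, the thyroid hormone-inactivating deiodinase at the Dlk1 cluster, rose (0.90, SE 0.211), and Tspan32 fell (-1.02, SE 0.216). In the averaged cKO 4 of the 22 were called, against 10.3% of all genes. Dio3 fell (-0.86, SE 0.185), and Pon3 (0.78, SE 0.165), Osbpl5 (0.70, SE 0.175) and Pon2 (0.68, SE 0.121) rose. Dio3 was at 0.622, 0.656 and 0.487 FPKM in THY1+ WT cells and 1.45, 1.07 and 1.03 FPKM in null, and in the Sox3 table at 0.232, 0.362 and 0.328 FPKM in WT labelled THY1+, 0.611, 1.32 and 1.02 FPKM in WT labelled KIT+, 0.518, 0.492 and 0.528 FPKM in cKO THY1+ and 0.122, 0.125 and 0.0832 FPKM in cKO KIT+. Its cKO THY1+ libraries lay between the WT groups, and its cKO KIT+ libraries were below both. The medians of this list were 0.02 in null THY1+, 0.21 in null KIT+ and 0.17 in the averaged cKO.

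H19 is also the precursor of a microRNA. The hairpin row Mir675 lies in H19 and counts reads of total RNA and not of the mature form. It was at 102, 121 and 143 FPKM in THY1+ WT cells and 54.7, 101 and 92.3 FPKM in KIT+ WT cells. Its reads can be those of H19 itself, so the row is not a separate measure. The mature sequence is shown with its seed, bases 2 to 8, in capitals.
mmu-miR-675-5p: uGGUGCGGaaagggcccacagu
Annotated microRNA hairpins lie within the bounds of 8 of the 36 genes, 14 of them in Mirg. Of the 7 within Rtl1 only 1 is on the strand of that gene. Mature microRNAs were not measured by these libraries, so nothing further is given for them.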

How the data were processed

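The deposited values are FPKM, made by the authors from single reads of stranded libraries depleted of ribosomal RNA, aligned to mm10 with Novoalign (reads with several alignments kept). No source states whether counting used strand, so overlapping and antisense genes are uncertain. The authors tested counts with DESeq2 in USeq. FPKM are not counts, so here log2(FPKM + 0.1) of genes with a mean of at least 0.1 FPKM was fitted in limma 3.58.1 (R 4.3.3; 4 group means a table, trend and robust, 22374 and 21212 genes). Tests were two-sided with Benjamini-Hochberg adjustment over all genes. A call needs an adjusted p of at most 0.05 and 1.5-fold. The added 0.1 understates changes of low genes. Depth was estimated from the FPKM worth of 1 read and GENCODE exon lengths, in which reads are not independent molecules. The fit was also run on values simulated for null against WT in THY1+ uSPG and for the averaged cKO. Those values were drawn independently for each library, so the run does not cover libraries that deviate together. Values in every library are given for imprinted genes of the set called in the THY1+, KIT+, interaction or averaged genotype comparison and for the 3 highest in each class, and most other genes by fold change or counts, with Plagl1, Zim1 and Meg3 in null THY1+ uSPG, Dppa3, Dio3 and Mir675 shown in addition. Members and lists were chosen with earlier results of these data known. Libraries of equal number in null and WT deviated together from their group means (r from 0.133 to 0.475 in THY1+ and from 0.362 to 0.520 in KIT+, 3 pairs each), a pairing read from the data since the labels give the number alone. Alternatives covered pseudocount, filter, scaling, replicate block, groups fitted, controls and single libraries.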

Additional observations from a re-analysis of the deposited data

How the results depend on the processing

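The 9 counts of imprinted genes called, that between null fractions added after the data had been seen, were refitted with pseudocounts of 0.01 and 1 FPKM, no filter, a minimum mean of 1 FPKM, equal-median scaling, only the groups compared, replicates 2 and 3 alone (Sox3), exchanged WT controls and without each library in turn. Leaving out 1 library gave 2 to 2 calls for null against WT in THY1+ uSPG, 0 to 0 in KIT+ dSPG, 5 to 16 between WT fractions, 0 to 5 for the interaction, 5 to 14 for the averaged cKO, 13 to 18 and 8 to 12 for cKO against WT by label in THY1+ and KIT+, 5 to 12 between cKO fractions and 11 to 15 between null fractions. On replicates 2 and 3 alone the count was 6 for cKO against WT by label in KIT+ and 2 between cKO fractions, where fewer libraries were tested. With WT labelled KIT+ as control the count by label in THY1+ was 0 and the change of Grb10 turned to 0.19. With WT labelled THY1+ as control the change of Ascl2 in KIT+ turned to -0.77. The share of all genes called is not given for most of these refits. Their counts show only how far the calls depend on settings and single libraries.

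Libraries of equal number were also compared over all pairs of groups. Their deviations from group means correlated across genes above 0.1 in 16 of 18 pairs for Zbtb16 (mean r 0.326). For Sox3 they did so in 12 of 18 pairs (mean r 0.147), so that the numbers do not pair the libraries of every comparison. Pairs of different number had a mean r of -0.16 (Zbtb16) and -0.07 (Sox3). Deviations within a group sum to 0, so a mean above 0 for equal numbers brings one below 0 for different numbers. The means for different numbers are therefore no separate evidence of pairing. With the replicate block the counts were 5 (2 higher, 3 lower; 8.85% of all genes) for null against WT in THY1+ uSPG, 8 (2.29%) in KIT+ dSPG, 18 (24.1%) between WT fractions and 19 (17 higher, 2 lower; 12.3%) for the interaction, and within 1.5 times the unblocked count in the other comparisons. The cause of these shifts was not tested. The 36 imprinted genes in the 9 comparisons kept their side of the threshold in 4487 refits, lost the call in 149, gained it in 128 and reversed in 2. Depth limits the Sox3 replicates 2 and 3 most, where the lowest gene rested on 4 reads.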
